A study of Mus musculus with 72 samples.

Results

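The collagen chain genes are the genes whose symbol is Col, a type number, the letter a and a chain number. In the count table of 50600 genes, 44 symbols had this form. A chain was used in a cell line when it had 10 or more counts in at least 3 of that line's 12 libraries. By that rule 34 chains were used in at least 1 of 6 mouse melanoma lines and 14 in all 6, and the number used in a line ran from 21 in 1014-Grpr to 29 in 1064. The 10 chains used in no line were Col6a4, Col6a5, Col6a6, Col8a2, Col13a1, Col17a1, Col19a1, Col24a1, Col26a1 and Col28a1.

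The lines 1057 and 1064 and the parental 1181 and 1014 cells each came from 1 mouse melanoma, so a difference between these 4 is a difference between single tumours. The methods describe the 2 lines of 1181, like those of 1014, as transfected from the same parental cells. The levels of the X-linked RNA Xist given below differ between the 2 lines of 1181, so their shared origin rests on the methods alone. Lines 1057 and 1064 (ΔEcad, female, GRPR-positive) carried the transgene Tyr::NRASQ61K/° on a Cdkn2a-/- background, with the melanocyte Cre transgene Tyr::CreA/° and the Cdh1dF/dF allele of the E-cadherin gene. The 1181 cells (male) carried Tyr::NRASQ61K/°, Cdkn2a-/- and Cdh1dF/dF with no Cre (°/°). The 1014 cells (female) were labelled only with Tyr::NRASQ61K/°. Both were transfected with a plasmid, CMV::tGFP in 1181-Ctrl and 1014-Ctrl (GRPR-negative) and CMV::Grpr/tGFP in 1181-Grpr and 1014-Grpr (GRPR-positive), in which the CMV promoter drives the insert. After 18 h of starvation in 0.5% serum the cells received, for 4 h, mock treatment (0.1% DMSO), 10 nM gastrin-releasing peptide (GRP), 1 µM RC-3095 (RC), an antagonist of GRPR, or both agents (GRP+RC). Each of the 24 groups had 3 libraries, 72 in all, of polyadenylated RNA. The study's methods describe its culture work as biological triplicates or more, but the labels do not say which libraries came from separate cultures, so the p-values measure the spread between these libraries, which may be partly technical.

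Collagens are secreted trimers of α chains wound around each other. Prolyl and lysyl hydroxylases modify the chains in the endoplasmic reticulum, chaperones such as Serpinh1 hold them, and large COPII carriers export them. Chains of the fibril-forming types build banded fibrils, FACIT chains decorate these fibrils, type IV chains build the sheet of the basement membrane, and multiplexins sit in the basement membrane zone. Skin basement membrane is the first matrix barrier that melanoma cells meet. GRPR is a receptor that signals through Gq proteins, and RC competes with GRP for it.

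Depth was 19512882 to 46862053 counts per library. Levels between genes or lines are given as deposited TPM, the share of transcripts after scaling for gene length and depth, and responses within a line as CPM, counts scaled by library size and TMM factors. All 7 melanocyte markers (Mitf, Sox10, Tyr, Tyrp1, Dct, Pmel and Mlana) were at 1 TPM or more on average in every line. Grpr was at 214 to 332 TPM in 1057, 539 to 1558 TPM in 1064 and 155 to 842 TPM in 1014-Grpr. Cdh1 was at or below 0.08 TPM in the ΔEcad lines and at 12.1 to 22.3 TPM in 1181-Ctrl, although both carry the Cdh1dF/dF label. A pair of libraries went against their labels. The library labelled 1014-Ctrl mock replicate 2 had 45.3 TPM of the Y-linked gene Ddx3y, 69.8 TPM of Grpr and 18.2 TPM of Cdh1, against 0 TPM, at most 0.05 TPM and at most 4.05 TPM in the other 11 libraries of that line. The library labelled 1181-Grpr GRP+RC replicate 2 had Ddx3y and Grpr at 0 TPM, against 27.5 to 45.0 TPM and 12.4 to 123 TPM in the other 11. Main counts and tests that rest on either library are given with and without it. The mock values of 1014-Ctrl, and fits run as alternatives, include these libraries unless stated. Xist, the RNA of the inactive X chromosome, was at 39.7 to 53.9 TPM in those other 11 libraries of 1181-Grpr, a line labelled male, and at most 0.14 TPM in 1181-Ctrl.

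Collagen RNA was a small part of each library, and its makeup differed from line to line. The 44 chains summed to 74.8 to 88.04 TPM in 1057, the lowest of the 6 lines, and to 186 to 274 TPM in 1064. The sums were 187 to 256 TPM in 1181-Ctrl, 253 to 276 TPM in 1181-Grpr, 285 to 372 TPM in 1014-Grpr and 311 to 379 TPM in 1014-Ctrl. The doubted libraries lay outside their lines' ranges, at 354 TPM in 1181-Grpr and 248 TPM in 1014-Ctrl. The sum in 1057 did not overlap that of any other line. In bulk RNA, fewer cells that express a chain and less of its RNA per cell cannot be told apart.

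**Figure D1:**
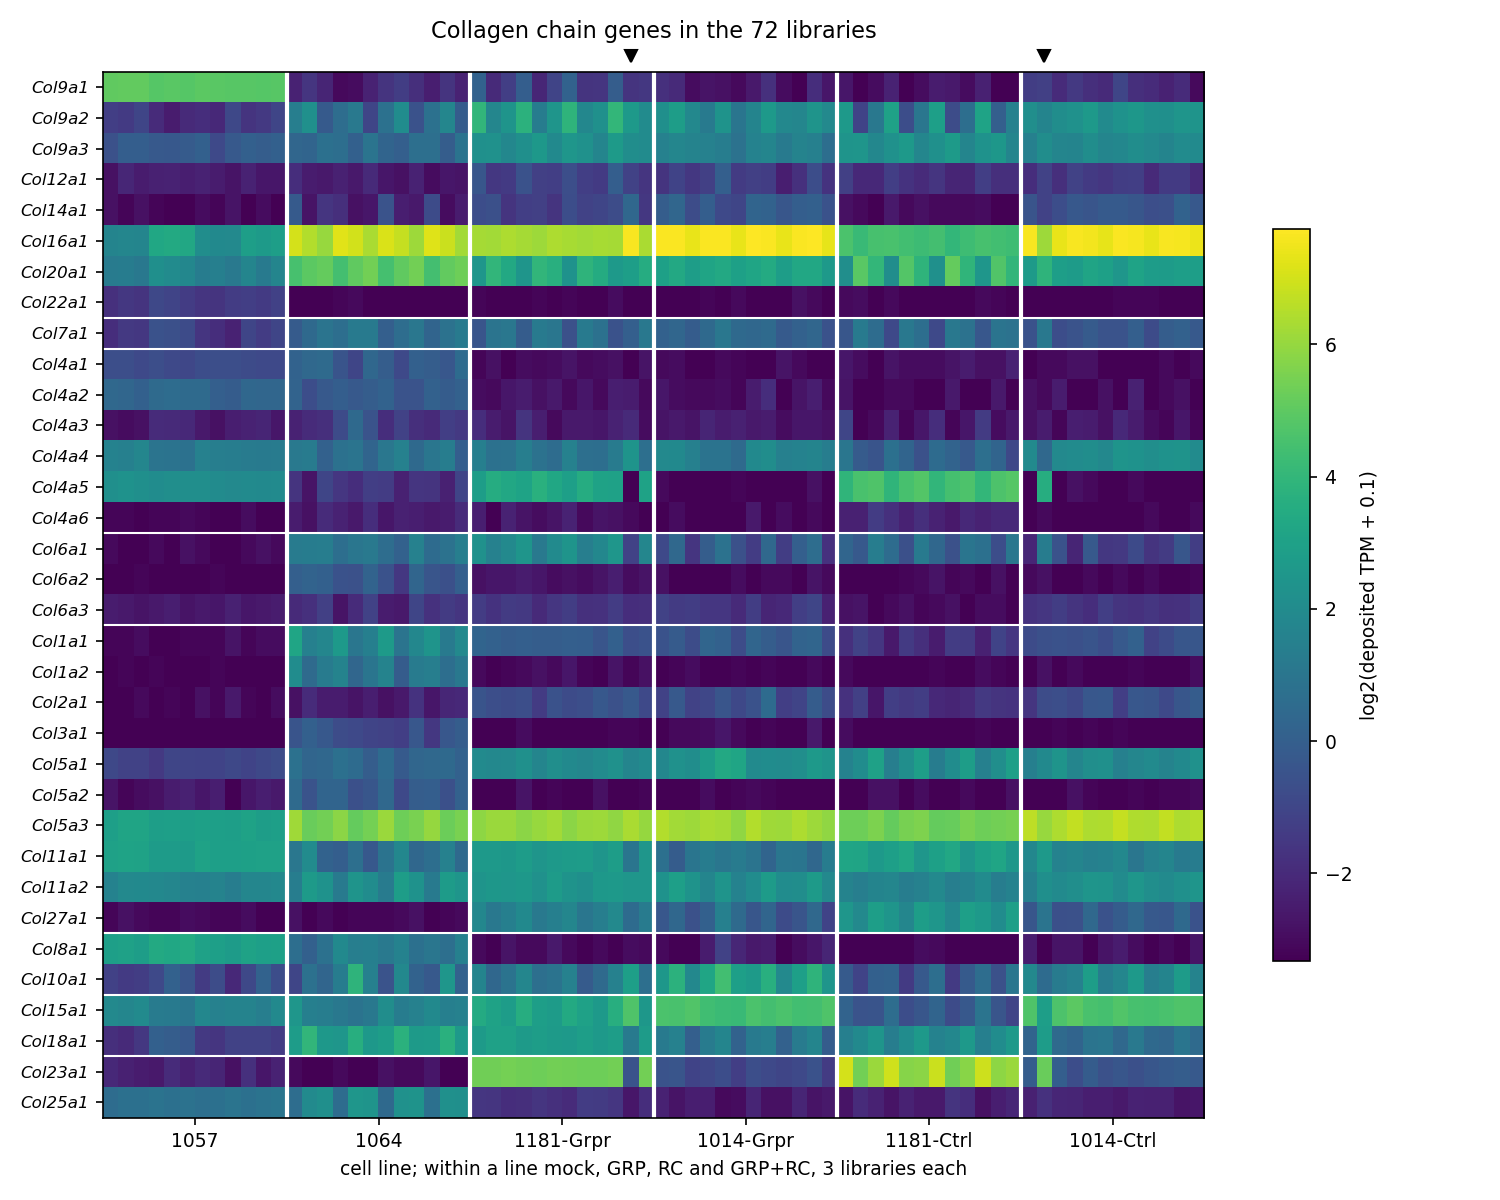
Deposited TPM of the 34 used collagen chains (rows, white lines between classes) in the 72 libraries (columns, by line and within a line by treatment), as log2(TPM + 0.1) on the colour scale. Triangles mark the 2 libraries that go against their labels. Col16a1 and Col5a3 are bright in every line but 1057, where Col9a1 is bright at 28.3 to 33.9 TPM, and Col1a2, Col3a1, Col5a2 and Col6a2 are above the darkest colours in 1064 alone.

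The lead chain differed between lines (mock libraries, mean ± SD, n = 3). In 1057 it was Col9a1, a FACIT chain of cartilage fibrils, at 33.4 ± 0.66 TPM or 40.0% of the collagen sum. Col5a3, a minor chain of type V fibrils, followed at 8.28 ± 0.76 TPM and overlapped Col11a1, its fibril-forming relative, at 8.22 ± 0.18 TPM. Col8a1, a short-chain collagen of hexagonal networks, was at 7.48 ± 0.42 TPM and Col4a5, a basement membrane chain, at 4.59 ± 0.24 TPM. Col16a1, a FACIT chain, led in 1064, both 1014 lines and 1181-Grpr. It was at 129.7, 89.6 and 66.2 TPM in 1064, where its lowest library lay below the highest of Col5a3 (70.9, 37.5 and 42.2 TPM). In 1014-Grpr it was at 203, 203 and 166 TPM, 56.1% of the sum and well clear of Col5a3 at 77.4 ± 10.0 TPM. In 1181-Grpr it was at 78.5 ± 5.5 TPM, ahead of Col5a3 (64.9 ± 5.9 TPM) and of Col23a1, a chain anchored in the plasma membrane (41.3 ± 1.5 TPM). In 1181-Ctrl Col23a1 came first at 131, 42.1 and 66.7 TPM, and its range overlapped that of Col5a3 (39.9, 39.0 and 47.4 TPM). Below these, 1064 had the FACIT chain Col20a1 at 29.9 ± 6.1 TPM, the multiplexin Col18a1 at 9.32 ± 5.23 TPM and Col1a1, the main chain of type I fibrils, at 4.98 ± 3.45 TPM. The multiplexin Col15a1 was the third chain of the 1014 pair, at 24.7 ± 1.6 TPM in 1014-Grpr. In 1014-Ctrl Col16a1 was at 197.9, 70.4 and 166.5 TPM, the lowest in the doubted library, and the mock mean of 13.04 TPM for Col23a1 came from the doubted library alone, at 37.4 TPM against 0.84 and 0.89 TPM.

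Set against the other 4 lines over all libraries, 7 of 34 chains separated the ΔEcad lines without overlap. This describes 2 tumours against what the methods give as 2 parental cell populations. Higher in 1057 and 1064 were Col4a1 (0.40 to 1.37 TPM, at most 0.11 TPM elsewhere) and Col4a2 (0.52 to 1.40 TPM, at most 0.17 TPM elsewhere), the partner chains of the common basement membrane trimer. Col8a1 was at 0.96 to 10.9 TPM there and at most 0.35 TPM elsewhere, and Col25a1, a membrane-anchored chain, at 1.26 to 5.62 TPM and at most 0.29 TPM elsewhere. Lower in both were Col5a1, the main chain of type V fibrils (0.26 to 1.64 TPM against 2.39 to 10.1 TPM), Col23a1 (at most 0.19 TPM against 0.28 to 131 TPM) and the fibril-forming Col27a1 (at most 0.04 TPM against 0.37 to 7.49 TPM). The other 27 overlapped. How many of all genes separate these lines in this way was not counted, so the 7 have no background to be set against. Col4a1, Col4a2 and Col8a1 met the count minimum only in 1057 and 1064, and Col27a1 only in the other 4 lines. These chains were therefore among the 34 only through the side where they were high.

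By the range of mock means of log2 CPM, the chains that differed most between lines were Col23a1 (9.89, highest in 1181-Ctrl and lowest in 1064), Col9a1 (8.70, 1057 and 1181-Ctrl), Col4a5 (8.38, 1181-Ctrl and 1014-Grpr), Col8a1 (7.02, 1057 and 1181-Ctrl) and Col27a1 (6.75, 1181-Ctrl and 1064). Col1a2 (6.44), Col1a1 (6.06) and Col18a1 (5.16) were highest in 1064 and lowest in 1057, Col16a1 (5.61) highest in 1014-Grpr and Col6a1 (5.34) highest in 1181-Grpr, both lowest in 1057. Without the doubted library the lowest line was 1014-Ctrl for Col4a5 (range 8.53) and Col1a2 (6.57), and the ranges of the other 8 were as given.

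Some chains stood out in 1 line. Line 1064 had Col1a2 at 0.82 to 4.02 TPM, Col3a1 at 0.25 to 0.95 TPM, Col5a2 at 0.44 to 1.30 TPM and Col6a2 at 0.25 to 1.11 TPM, chains typical of fibroblasts and smooth muscle, and none of these passed 0.10 TPM in any library of the other lines. The levels stayed low even in 1064. The fibroblast marker Lum had no count in 1064, and none in 1014-Grpr or 1181-Ctrl either. Over the 7 fibroblast markers 0 reached 1 TPM on average in 1064 (summed 1.17 to 2.50 TPM, against 17.8 to 41.0 TPM in 1181-Grpr and the 1014 pair, where Postn was at 1 TPM or more). Of 6 smooth muscle and pericyte markers, Acta2, Cspg4 and Des were at 1 TPM or more in 1064 (summed 47.1 to 88.6 TPM, against 0.77 to 1.49 TPM in 1057). In 1181-Ctrl, where the 4 chains stayed low, Cspg4 and Des were at 1 TPM or more as well and the markers summed to 46.2 to 71.3 TPM, and in 1181-Grpr, the doubted library included, to 4.27 to 30.7 TPM. Cspg4 was at 1 TPM or more in every line but 1057. The part of these marker levels in the line differences was not tested. Summed markers of other cells ran from 1.06 to 6.58 TPM for endothelial cells, 0.66 to 23.4 TPM for keratinocytes (Krt10 and Cdh1 being those at 1 TPM or more) and 2.99 to 100.1 TPM for immune cells (Cd68 being the 1 marker at 1 TPM or more). Col9a1 was at 28.3 to 33.9 TPM in 1057 and at most 1.03 TPM in every other line, and Col22a1, a FACIT chain of tissue junctions, at 0.19 to 0.42 TPM in 1057 and at most 0.04 TPM elsewhere. Col6a1, a type VI chain, was at most 0.04 TPM in 1057, against 0.97 to 2.83 TPM in 1064 and 2.15 to 5.47 TPM in 1181-Grpr without the doubted library.

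In the mock libraries 26 of 34 chains differed between 1057 and 1064 by the edgeR quasi-likelihood test (Benjamini-Hochberg adjusted p under 0.05 over all genes tested), 5 higher and 21 lower in 1057. Over all genes 47.8% passed, 23.9% in each direction. With the doubted library out of the shared fit 27 passed, 6 higher and 21 lower, against 53.9% of all genes. Of the fibril-forming chains 7 of 10 were lower in 1057, and of the FACIT chains 5 of 8. This fit takes each chain used in any line, so the counts in each direction rest partly on that filter. Col1a1, Col1a2, Col3a1, Col4a6, Col5a2, Col6a1, Col6a2 and Col14a1 were used in 1064 and not in 1057. Col9a1, Col22a1 and Col23a1 were used in 1057 and not in 1064. Col16a1 fell by 4.84 on the log2 scale from 1064 to 1057 (SE 0.33, adjusted p = 3.9e-08) and Col18a1 by 5.53 (SE 0.74, adjusted p = 2.6e-05), while Col9a1 was higher by 7.86 (SE 0.63, adjusted p = 1.7e-07). Between 1181-Ctrl and 1014-Ctrl 11 of 34 passed, 2 higher and 9 lower in 1181-Ctrl, against 32.4% of all genes, and 16 passed without the doubted library, against 47.8%. The Grpr plasmid lines were also set against their controls. In 1181-Grpr 8 of 34 chains passed against 1181-Ctrl and all 8 were higher, against 9.07% of all genes in either direction and 7.82% higher, and with the doubted library out of the shared fit 9 were higher and 2 lower against 15.6%. They included Col9a1 (4.05, SE 0.83, adjusted p = 0.0049), Col15a1 (3.56, SE 0.44, adjusted p = 4.9e-05), Col1a1 (1.93, SE 0.41, adjusted p = 0.0063), Col16a1 (1.92, SE 0.29, adjusted p = 4e-04) and Col5a3 (0.69, SE 0.20, adjusted p = 0.042). Col9a1, Col6a3 and Col14a1 were used in 1181-Grpr and not in 1181-Ctrl, and Col4a6 the reverse, so the direction rests partly on the filter. The mean log2(CPM + 0.1) of Col9a1 in mock was -0.68 in 1181-Grpr and -2.86 in 1181-Ctrl, where it was near 0 CPM. The Xist levels given above also differ between these lines, so the plasmid and the cell population that carries it cannot be told apart. Between 1014-Grpr and 1014-Ctrl 0 of 34 passed by edgeR, against 0.0724% of all genes, with 5 at an unadjusted p under 0.05 and 3 passing by DESeq2, and 0 passed without the doubted library, with 4 at an unadjusted p under 0.05, against 0.229%. Leaving out replicates moved these counts, to 17 without replicate 3 for the ΔEcad lines, to 6 and 4 without replicates 1 and 3 for the control lines, and to 5 and 3 without replicates 1 and 3 for the 1181 pair. These fits kept the doubted library.

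In 5 of the lines a chain's level followed the replicate number more than the treatment. Same-numbered libraries of these lines also correlated over the well-expressed genes as a whole (doubted libraries left out), so this was not particular to the collagens. The share of all genes by the measure below was not counted. The SD of log2(CPM + 0.5) over the replicate-number means exceeded that over the treatment means for 26 of 29 chains in 1064, 25 of 25 in 1181-Grpr, 18 of 21 in 1014-Grpr, 22 of 23 in 1181-Ctrl and 18 of 23 in 1014-Ctrl (doubted libraries left out). In 1057 this held for 3 of 24. The median SD over replicate numbers was 0.49 in 1181-Ctrl against 0.08 over treatments, and 0.05 against 0.15 in 1057. In 1181-Ctrl Col23a1 lay at 116 to 131 TPM in the 4 libraries numbered 1, at 41.2 to 57.5 TPM in those numbered 2 and at 54.2 to 67.8 TPM in those numbered 3. Col20a1 lay in another order there, at 4.24 to 5.51, 26.9 to 35.1 and 14.7 to 15.9 TPM. Col4a5 lay at 15.0 to 16.2, 22.5 to 25.3 and 24.8 to 28 TPM. In 1064 Col18a1 was at 12.1 to 15.3 TPM in libraries numbered 2 and at 5.5 to 7.1 TPM in all others. What the number stands for was not given, so its cause was not tested. It widens the error of the tests that follow, and a fit with the replicate number as a block is given beside results for 1064 and 1014-Grpr, where same-numbered libraries moved together. In 1181-Ctrl they did so too, as they did in 1181-Grpr and 1014-Ctrl once the doubted library was left out, and in the treatment comparisons of these lines the block changed no chain's call.

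**Figure D2:**
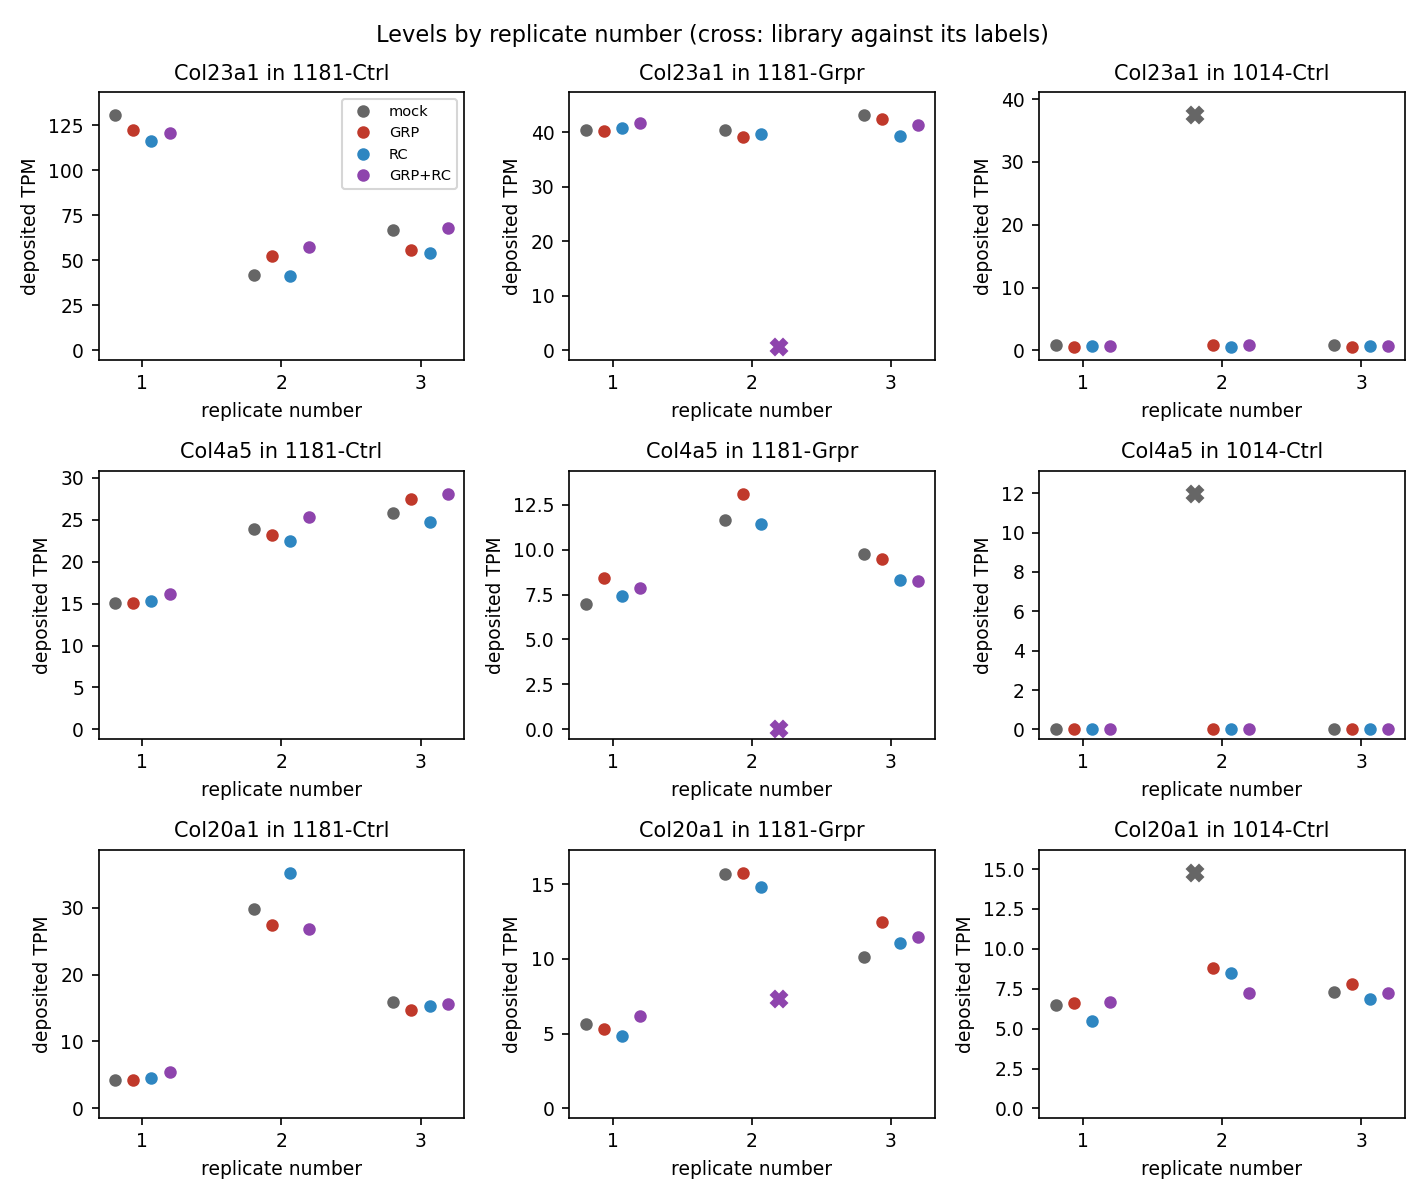
Deposited TPM (y axis, 1 scale per panel) of Col23a1, Col4a5 and Col20a1 in 1181-Ctrl, 1181-Grpr and 1014-Ctrl, by replicate number (x axis) with the 4 treatments as colours and a cross for each library that goes against its labels. In 1181-Ctrl the treatments lie together within a number, as for Col23a1 at 116 to 131 TPM for number 1, and the crosses lie apart from the other 11 libraries, as for Col23a1 at 37.4 TPM in 1014-Ctrl.

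GRP raised 8 collagen chains in 1057, among them Col18a1, Col16a1 and Col4a3, and lowered 5. Col4a3 met the count minimum only through libraries that received GRP, so its call rests partly on that filter. In all 13 of 24 chains passed, against 52.2% of all genes, 25.5% higher and 26.8% lower. The share of chains that passed was thus near that of all genes. Replicates of 1057 lay closer together than those of the other lines, so this number cannot be compared with theirs as a size of response. With a log2 change above 1 in size as well, 6 passed, against 6.47% of all genes. The median log2 change was 0.11 for the chains and -0.01 for all genes tested. By class, 3 of 7 FACIT chains rose and 2 fell, both short-chain network collagens rose, 1 of 5 type IV chains rose and 1 fell, 1 multiplexin rose and the other fell, the type VII chain rose, and 1 of 4 fibril-forming chains fell. Neither of the 2 membrane-anchored chains nor the type VI chain passed.

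The FACIT chain Col16a1, the lead collagen of most other lines, was the clearest. It was at 6.42, 6.52 and 6.39 CPM in mock libraries and at 19.8, 22.5 and 20.9 CPM with GRP, a log2 change of 1.71 (SE 0.07, adjusted p = 9.9e-13). The multiplexin Col18a1, whose end fragment is endostatin, rose from 0.38, 0.31 and 0.52 CPM to 2.04, 1.93 and 1.57 CPM, by 2.18 (SE 0.23, adjusted p = 1.7e-07). Col7a1, the chain of the anchoring fibrils that fasten epidermis to dermis, rose from 0.52, 0.78 and 0.74 CPM to 1.88, 1.80 and 1.55 CPM, by 1.35 (SE 0.22, adjusted p = 3.9e-05). For all of these the groups did not overlap. The FACIT chains Col20a1 (0.86, SE 0.14, adjusted p = 4.7e-05) and Col22a1 (0.78, SE 0.22, adjusted p = 0.0056) rose less. Col8a1 rose from 11.6, 11.9 and 10.6 CPM to 16.4, 15.4 and 17.4 CPM (0.53, SE 0.07, adjusted p = 4.5e-06). The short-chain Col10a1, known from growth plate cartilage, rose from 0.33, 0.25 and 0.28 CPM to 0.44, 0.97 and 0.64 CPM (1.27, SE 0.42, adjusted p = 0.016), on 9 to 36 counts a library. Col15a1 went from 6.88, 6.19 and 7.19 CPM to 4.51, 4.45 and 3.82 CPM (-0.66, SE 0.12, adjusted p = 1.5e-04), Col11a1 from 31.2, 31.7 and 30.8 CPM to 26.6, 26.7 and 26.1 CPM (-0.24, SE 0.04, adjusted p = 1e-04), and Col9a1 from 50.4 ± 0.29 CPM to 45.9 ± 1.65 CPM (-0.14, SE 0.04, adjusted p = 0.0033). The groups did not overlap for any of the 13, which were picked by passing the test on these same libraries. The share of all genes without overlap was not counted. Col9a2, the partner chain of Col9a1, fell by 1.24 on the log2 scale (SE 0.47, adjusted p = 0.033) on 3 to 13 counts a library. Of these calls Col9a2 was lost without any 1 replicate number, Col10a1 without number 2 or 3, Col22a1 without number 1 and Col9a1 without number 3.

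The bases before the start site of Col16a1, Col18a1 and Col7a1, 3 of the 8 chains that rose in 1057, are shown with 3 motifs marked in capitals, the TEAD site GGAATG, the AP-1 site TGANTCA and the SP1 box GGGCGG, each on both strands. TEAD proteins are the partners of YAP1, AP-1 answers growth signals and SP1 sits at many CpG-rich promoters. The sequences are 250 bases on the strand of the gene, from RefSeq on GRCm38.p6, where 26 of the 34 used chains had an entry (29 start windows). Col16a1 is at chr4:130047840-130099283 on the plus strand. Col18a1 (chr10:77052178-77166548, minus strand) has 2 start sites listed, and its reads were not split between them here.
Col16a1, chr4:130047590-130047839, plus strand: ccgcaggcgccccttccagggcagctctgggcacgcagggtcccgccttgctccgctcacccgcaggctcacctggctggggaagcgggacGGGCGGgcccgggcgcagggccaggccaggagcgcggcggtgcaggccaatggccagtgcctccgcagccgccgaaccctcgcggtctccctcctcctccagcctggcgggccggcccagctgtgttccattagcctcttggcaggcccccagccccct
Col18a1, inner start, chr10:77113706-77113955, minus strand: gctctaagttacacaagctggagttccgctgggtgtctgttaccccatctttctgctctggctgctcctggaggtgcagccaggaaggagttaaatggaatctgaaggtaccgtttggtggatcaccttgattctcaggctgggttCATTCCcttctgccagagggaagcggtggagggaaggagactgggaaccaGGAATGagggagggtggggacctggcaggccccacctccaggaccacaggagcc
Col18a1, outer start, chr10:77166531-77166780, minus strand: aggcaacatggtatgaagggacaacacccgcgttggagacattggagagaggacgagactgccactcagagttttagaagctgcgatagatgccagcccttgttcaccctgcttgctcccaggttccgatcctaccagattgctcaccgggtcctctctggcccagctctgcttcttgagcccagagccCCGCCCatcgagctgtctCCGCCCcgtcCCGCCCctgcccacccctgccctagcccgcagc
Col7a1, chr9:108953336-108953585, plus strand: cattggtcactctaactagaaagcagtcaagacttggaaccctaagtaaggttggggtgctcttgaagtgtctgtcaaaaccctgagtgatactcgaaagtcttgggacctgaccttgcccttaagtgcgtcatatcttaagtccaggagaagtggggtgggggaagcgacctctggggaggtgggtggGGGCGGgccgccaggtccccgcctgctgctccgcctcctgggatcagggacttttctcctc
The inner start of Col18a1 held 2 TEAD matches, and the windows of Col16a1, Col7a1 and the outer start of Col18a1 held SP1 matches. Of the other chains that rose, Col4a3 and Col22a1 had no entry, and among those not shown Col20a1 held 1 TEAD match, Col8a1 4 SP1 matches and Col10a1 none of the 3 motifs. In windows of 300 bases (the 250 shown and the 50 that follow) the TEAD site was in 5 of the 29 windows of used chains, against 14.7% of 32851 windows of all genes. The AP-1 site was in 1 of 29, against 7.81%, and the SP1 box in 19 of 29, against 35.7%. A match is a string of letters, not a bound site.

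With RC added, part of these chains lay closer to mock in 1057. With GRP and RC together 8 of 24 chains differed from GRP alone, 3 higher and 5 lower, against 24.5% of all genes, and all 8 were among those that GRP moved, which shares the GRP libraries between the comparisons. Col16a1 was at 15.4, 13.7 and 15.1 CPM, below GRP (-0.52, SE 0.07, adjusted p = 1.3e-05) and above mock (1.19, SE 0.08, adjusted p = 6.2e-10). Col18a1 was at 0.75, 0.76 and 0.62 CPM, below GRP by 1.36 (SE 0.20, adjusted p = 5.7e-05). Both therefore lay between mock and GRP with no overlap. Col7a1 (-0.61, SE 0.20, adjusted p = 0.033), Col20a1 (-0.45, SE 0.13, adjusted p = 0.019) and Col8a1 (-0.41, SE 0.07, adjusted p = 2.6e-04) were lower, and Col11a1 (0.23, SE 0.04, adjusted p = 5.4e-04) and Col15a1 (0.49, SE 0.12, adjusted p = 0.0067) higher, than with GRP. The calls of Col7a1, Col20a1 and Col15a1 depended on the replicates, since Col7a1 was lost without any 1 number, Col20a1 without number 1 or 2 and Col15a1 without number 3. Against mock, 10 of 24 chains still differed with GRP+RC, against 44% of all genes, and 5 did so without any 1 replicate number. RC alone moved 2 of 24 against 24.1% of all genes, Col16a1 up (8.84, 7.58 and 7.54 CPM, 0.31, SE 0.08, adjusted p = 0.011) and Col9a1 down (-0.11, SE 0.04, adjusted p = 0.030). These were small, and Col16a1 was lost without number 1 (adjusted p = 0.12) or number 3 (0.059) and Col9a1 without any of the 3.

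**Figure D3:**
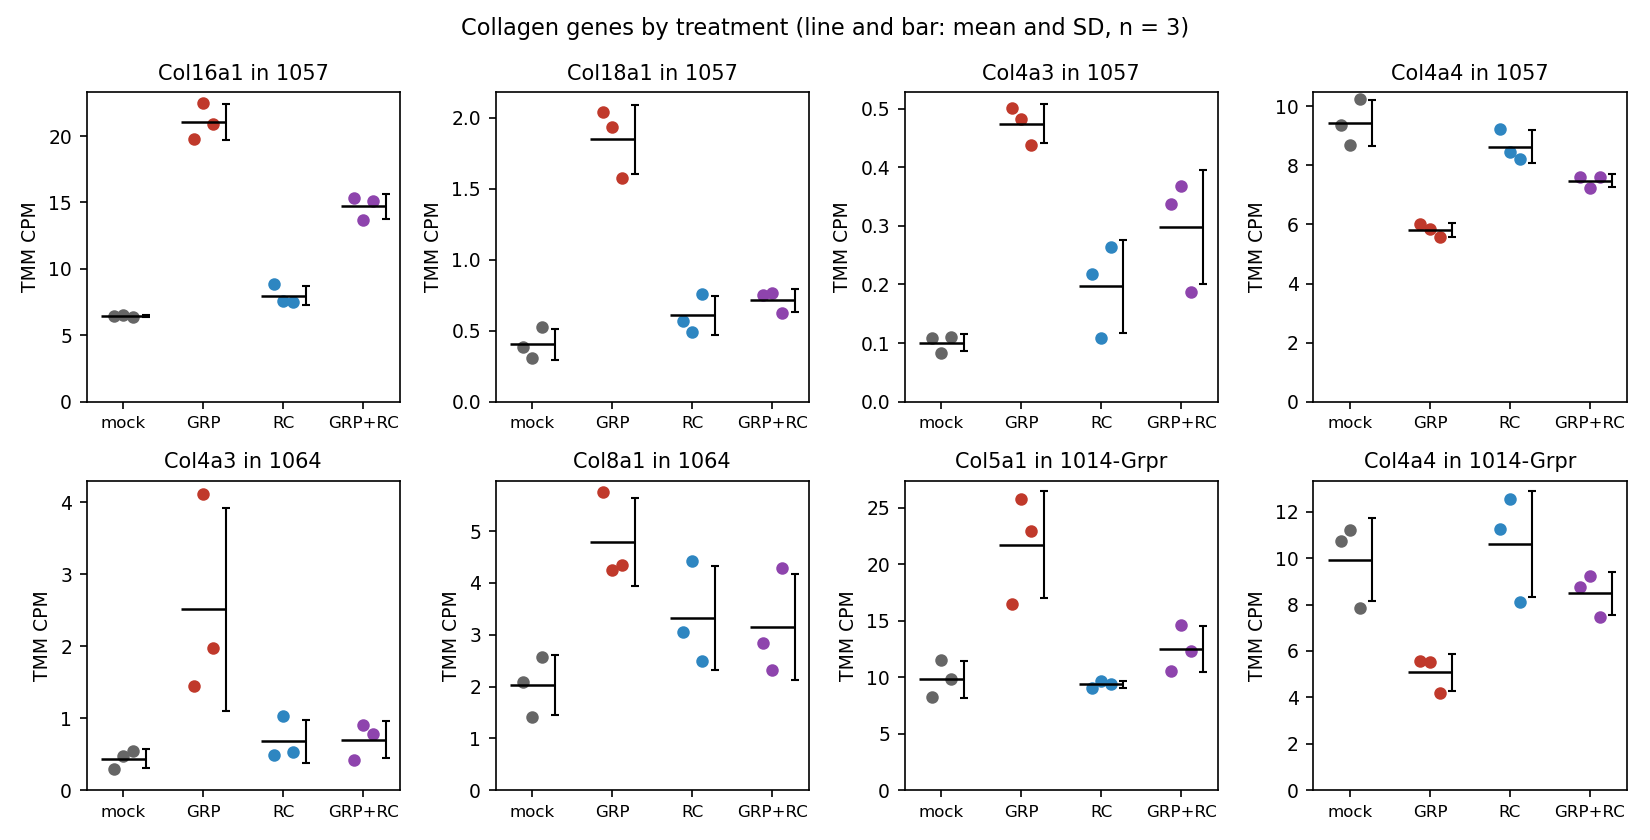
CPM (y axis, from 0, 1 scale per panel) of collagen chains by treatment in 1057, 1064 and 1014-Grpr, with a point per library and a line and bar for the mean and SD (n = 3). In 1057 Col16a1 and Col18a1 stand highest with GRP and lie between mock and GRP with GRP+RC, and Col4a4 stands lowest with GRP.

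In 1064, which like 1057 expresses Grpr on its own, 2 of 29 chains passed with GRP, both higher and both by more than 1 on the log2 scale, against 6.35% of all genes in either direction, 3.75% higher and 2.31% past that size. Col4a3, a chain of specialised basement membranes such as that of the kidney glomerulus, rose from 0.29, 0.47 and 0.54 CPM to 1.45, 4.11 and 1.98 CPM (2.50, SE 0.49, adjusted p = 0.018). Col8a1 rose from 2.09, 1.41 and 2.57 CPM to 5.76, 4.25 and 4.35 CPM (1.23, SE 0.32, adjusted p = 0.046). Every GRP library was above every mock library for both, which were picked by passing the test on these same libraries. Neither call survived the loss of a replicate number, with adjusted p of 0.095 to 0.18 for Col4a3 and 0.064 to 0.32 for Col8a1. With the replicate block 11 of 29 passed, 7 higher and 4 lower, against 43.2% of all genes. Col10a1 had the largest blocked rise at 2.50 (SE 0.31, adjusted p = 2e-04), from 0.33, 1.51 and 1.06 CPM to 2.29, 14.9 and 2.69 CPM, and its GRP library numbered 2 stood far above the others. Of the chains that passed in 1057, Col16a1 (0.48), Col7a1 (0.79) and Col20a1 (0.21) were higher and Col15a1 (-0.65), Col9a2 (-0.82) and Col11a1 (-0.92) lower on the log2 scale in the blocked fit. Col16a1 was at 239.6, 174 and 135 CPM in mock and 316, 280.1 and 173.5 CPM with GRP, so its groups overlapped while each number rose. With GRP+RC 0 of 29 chains differed from GRP by edgeR, against 0.0288% of all genes, with 2 at an unadjusted p under 0.05 and 1 passing by DESeq2. The block gave 4 against 21.1%, with Col4a3 (-1.79), Col10a1 (-1.54) and Col16a1 (-0.20) lower and Col11a1 (0.72) higher. Col4a3 was then at 0.42, 0.91 and 0.77 CPM. RC alone and GRP+RC against mock passed 0 of 29 each by edgeR and by DESeq2, with 1 each at an unadjusted p under 0.05 by edgeR, and 0% of all genes passed in both.

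In 1014-Grpr, where Grpr came from the plasmid, 3 of 21 chains passed with GRP, 1 higher and 2 lower, against 28.6% of all genes. With a log2 change above 1 in size 1 passed, against 4.01%. Col5a1 (chr2:27886425-28039514, plus strand, with 2.50% of its exon bases opposite other genes) rose from 8.22, 11.5 and 9.81 CPM to 16.5, 25.8 and 22.9 CPM (1.15, SE 0.17, adjusted p = 4e-04). The chain nucleates collagen fibrils and sets their width. In 1057, where Col5a1 was low, its log2 change was -0.04 (SE 0.21, adjusted p = 0.88). Col4a4 went from 10.7, 11.2 and 7.87 CPM to 5.56, 5.55 and 4.17 CPM (-0.98, SE 0.19, adjusted p = 0.0023), and Col15a1 from 43.5, 41.6 and 45.8 CPM to 38.1, 35.7 and 34.3 CPM (-0.28, SE 0.08, adjusted p = 0.026). The groups did not overlap for any of these, which were picked by passing the test on these same libraries. The share of all genes without overlap was not counted. Col5a1 passed whichever replicate number was left out. Col15a1 was lost without any 1 of them (adjusted p of 0.092 to 0.10) and Col4a4 without number 1 (0.059). Without number 2 the count was 5 and without number 1 it was 1. With the replicate block 13 of 21 passed, 9 higher and 4 lower, against 53.1% of all genes. Col7a1 (0.73), Col10a1 (0.82) and Col16a1 (0.11) were among those higher, as was Col27a1 at 1.11 (SE 0.17, adjusted p = 1.8e-05), from 2.59, 4.30 and 2.07 CPM to 3.64, 10.5 and 5.17 CPM. The window before the start of Col5a1, with 2 SP1 matches in capitals and neither of the other motifs, is shown since the gene rose here and not in 1057.
Col5a1, chr2:27886175-27886424, plus strand: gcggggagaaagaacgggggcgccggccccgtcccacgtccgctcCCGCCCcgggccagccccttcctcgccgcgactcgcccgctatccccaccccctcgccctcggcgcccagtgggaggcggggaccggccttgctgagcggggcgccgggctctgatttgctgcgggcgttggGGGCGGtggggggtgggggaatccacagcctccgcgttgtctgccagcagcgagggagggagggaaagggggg
With RC added 2 of 21 chains differed from GRP alone, against 11.6% of all genes. Col5a1 was at 10.5, 14.6 and 12.4 CPM (-0.80, SE 0.17, adjusted p = 0.0095) and Col4a4 at 8.77, 9.23 and 7.45 CPM (0.75, SE 0.19, adjusted p = 0.026). Both lay back towards the mock libraries, and against mock 0 of 21 chains passed, with 0.953% of all genes, 0 at an unadjusted p under 0.05 and 0 by DESeq2. The call of Col4a4 was lost without number 1 (adjusted p = 0.20) or 2 (0.15), and that of Col5a1 without number 2 (0.056) or 3 (0.13). The block gave 9 chains against 38.3%, 3 higher and 6 lower than with GRP, and 1 against mock, Col5a1 (0.34, adjusted p = 0.014), against 17.2%. RC alone passed 0 of 21 by edgeR and by DESeq2, 0 at an unadjusted p under 0.05, and 0% of all genes.

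**Figure D4:**
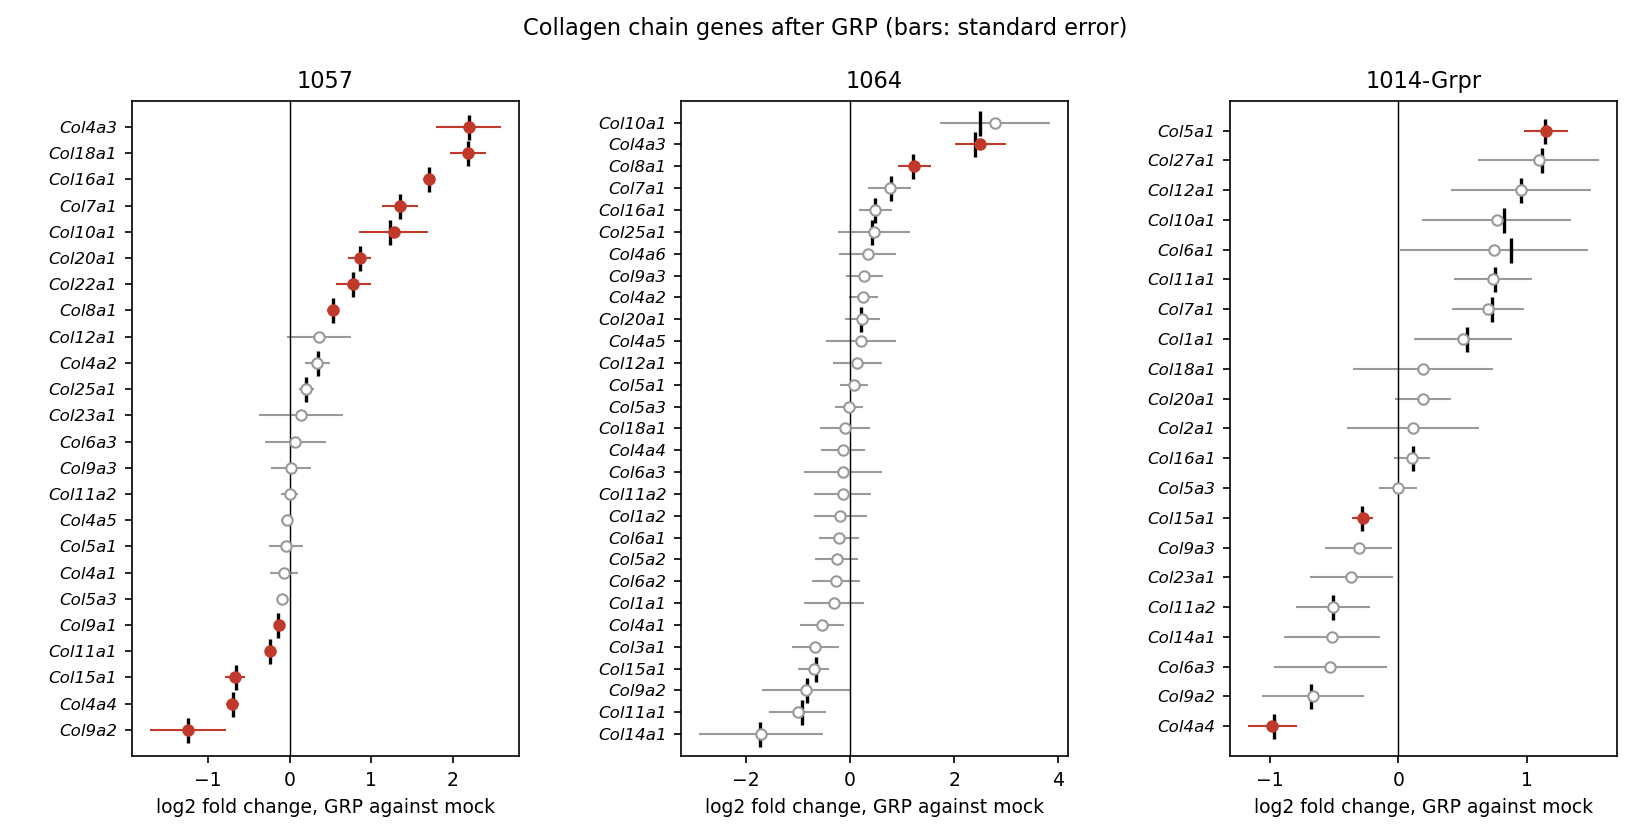
Log2 change with GRP against mock (x axis) of each used collagen chain in 1057, 1064 and 1014-Grpr, with bars of 1 SE. Filled points passed at an adjusted p under 0.05, 13 of 24, 2 of 29 and 3 of 21, and black ticks give the estimate of the fit with the replicate block for chains that passed in it.

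No chain passed with GRP in the remaining lines, which does not show that GRP had no effect there. GRP against mock passed 0 of 25 chains in 1181-Grpr, 0 of 23 in 1181-Ctrl and 0 of 23 in 1014-Ctrl by edgeR, and 0% of all genes in each. The counts at an unadjusted p under 0.05 were 0, 0 and 1, and DESeq2 passed 0 in each. The 1 chain was Col23a1 in 1014-Ctrl, and its difference rested on the doubted library. The result was 0 in each without the doubted libraries too. In 1181-Grpr the other treatment comparisons also passed 0 of 25 by edgeR and by DESeq2, and 0% of all genes, with at most 1 chain at an unadjusted p under 0.05. The share of all genes with the replicate block is not given for these lines. Grpr in 1181-Grpr was at 12.4 to 26.9 TPM in mock, far under the other 3 GRPR-positive lines, and its wider range over all treatments is given above. Whether that level bears on these counts was not tested.

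The difference of the GRP effect between a Grpr line and its control was tested as an interaction. For the 1014 pair 2 of 23 chains passed, against 13.6% of all genes. The effect of GRP on Col4a4 was lower in 1014-Grpr than in 1014-Ctrl by a log2 difference of -1.39 (SE 0.39, adjusted p = 0.021), and on Col5a1 it was higher by 1.11 (SE 0.32, adjusted p = 0.024). In 1014-Ctrl Col5a1 was at 6.47, 8.97 and 12.5 CPM in mock and 7.59, 10.5 and 10.9 CPM with GRP. Col4a4 was at 11.5, 3.74 and 10.8 CPM there, the lowest from the doubted library, and at 11.9, 12.8 and 10.4 CPM with GRP. Without that library the differences were -1.04 (adjusted p = 0.0069) and 1.13 (adjusted p = 0.022), 2 chains passed again, and 17% of all genes did. Both calls depended on the replicates, with Col4a4 at an adjusted p of 0.067 to 0.13 without 1 number and Col5a1 at 0.12 and 0.21 without number 2 and 3. Of these fits, only that without number 2 left out the doubted library. The block gave 8 chains against 26.8% of all genes, and 9 against 39.9% without the doubted library. For the 1181 pair 0 of 26 chains passed by edgeR or DESeq2, 0 at an unadjusted p under 0.05 and 0% of all genes, also without the doubted library.

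The 6 type IV chains lie in 3 head-to-head pairs, each pair copied in opposite directions from a shared start region. Col4a1 and Col4a2 on chromosome 8 overlap by 22 bases at their starts. Col4a4 (chr1:82448423-82586849, minus strand) and Col4a3 (chr1:82586921-82722059, plus strand) are 71 bases apart, and Col4a6 and Col4a5 on chromosome X 1308 bases. The sequence between Col4a4 and Col4a3 is shown because 1 chain of the pair fell and the other rose in 1057.
Col4a4 to Col4a3, chr1:82586850-82586920, minus strand: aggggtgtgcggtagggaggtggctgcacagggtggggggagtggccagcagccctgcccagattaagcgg
It held none of the 3 motifs. With GRP in 1057 Col4a3 rose from 0.109, 0.0833 and 0.1102 CPM to 0.502, 0.483 and 0.437 CPM (2.19, SE 0.40, adjusted p = 1.4e-04), on 3 or 4 counts a library in mock and 15 to 18 with GRP. It met the count minimum only through libraries that received GRP, so this call rests partly on the filter. Its partner Col4a4 fell from 9.37, 8.69 and 10.2 CPM to 6.02, 5.85 and 5.57 CPM (-0.70, SE 0.08, adjusted p = 6.5e-07). With GRP+RC Col4a4 was at 7.61, 7.22 and 7.60 CPM, above GRP (0.36, SE 0.08, adjusted p = 0.0030), and Col4a3 at 0.34, 0.37 and 0.19 CPM (-0.65, SE 0.32, adjusted p = 0.16). Of the exon bases of Col4a3 5.65% lie opposite another gene, and whether counting used the strand was not stated. In 1064 Col4a4 was at 6.20, 7.21 and 3.21 CPM in mock and 5.30, 6.15 and 3.68 CPM with GRP, which did not pass (-0.13, adjusted p = 0.91), while Col4a3 rose as given above. In 1014-Grpr Col4a4 fell and Col4a3 was under the count minimum, at 0.05, 0.07 and 0.05 TPM in mock and 0.12, 0.08 and 0.10 TPM with GRP.

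The other pairs differed between lines, and none of their chains passed with GRP by the fit without the block. Col4a1 and Col4a2 were both at 0.40 TPM or more in every ΔEcad library and near 0 elsewhere, and Col4a2 in 1057 was at 2.20 ± 0.30 CPM in mock and 2.79 ± 0.12 CPM with GRP (adjusted p = 0.068). Col4a5 was at 3.62 to 4.86 TPM in 1057, 15.0 to 28 TPM in 1181-Ctrl and 6.97 to 13.1 TPM in 1181-Grpr, at most 0.39 TPM in 1064 and at most 0.04 TPM in both 1014 lines, the doubted libraries left out (0 TPM in the 1181-Grpr one, 11.9 TPM in the 1014-Ctrl one). Its neighbour Col4a6 never passed 0.29 TPM.

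Of the 4 chains that passed with GRP in 2 lines by the fits without the block, Col4a3 and Col8a1 rose in both ΔEcad lines and Col4a4 and Col15a1 fell in 1057 and 1014-Grpr. The share of all genes that passed in 2 lines was not counted, so these 4 have no background to be set against. With the block more chains passed in 1064 and 1014-Grpr, as given above. Col8a1 was at most 0.35 TPM in the other 4 lines. The highest of these was in 1014-Grpr, with 0.08, 0.35 and 0.13 TPM of Col8a1 with GRP, 0.03, 0.06 and 0.12 TPM with GRP+RC and 0.02, 0 and 0 TPM in mock. With RC, Col8a1 was at 12.4, 11.7 and 10.6 CPM in 1057 and 3.06, 4.43 and 2.49 CPM in 1064, and with GRP+RC at 13.02, 11.95 and 12.1 CPM and 2.84, 2.31 and 4.29 CPM. Col15a1 was at 6.62, 5.42 and 5.85 CPM with RC and 5.90, 5.01 and 7.10 CPM with GRP+RC in 1057. In 1064 it was at 9.62, 4.81 and 4.72 CPM in mock and 4.04, 3.60 and 4.17 CPM with GRP, without overlap but not past the test (-0.69, SE 0.30, adjusted p = 0.20), and with the block it passed (-0.65, SE 0.18, adjusted p = 0.014). In the lines where no chain passed with GRP, Col15a1 changed by -0.02 in 1181-Grpr, 0.23 in 1181-Ctrl and 0.39 in 1014-Ctrl on the log2 scale. Col4a4 changed there by -0.09, -0.05 and 0.43, and none passed. The values for 1014-Ctrl include the doubted library, and without it Col4a4 changed by 0.07 and Col15a1 by 0.0056.

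Across the remaining groups Col4a4 was at 9.25, 8.45 and 8.20 CPM with RC in 1057 and at 11.2, 12.5 and 8.10 CPM with RC in 1014-Grpr. In 1064 it was at 5.98, 8.73 and 4.03 CPM with RC and 5.94, 7.88 and 2.85 CPM with GRP+RC. None of these passed against mock. In 1181-Grpr Col4a4 was at 7.92, 5.02 and 5.23 CPM in mock, 7.48, 5.25 and 4.30 CPM with GRP, 8.41, 4.70 and 4.62 CPM with RC and 6.81, 16.6 and 4.83 CPM with GRP+RC, the 16.6 CPM from the doubted library. In 1181-Ctrl it was at 5.85, 2.49 and 1.92 CPM in mock, 4.88, 3.28 and 1.75 CPM with GRP, 4.13, 3.28 and 2.31 CPM with RC and 4.72, 3.37 and 1.31 CPM with GRP+RC. The highest library of each group there was number 1. In 1014-Ctrl it was at 15.8, 15.0 and 13.1 CPM with RC and 15.0, 15.2 and 11.6 CPM with GRP+RC. Col15a1 was at 43.4, 38.5 and 42.5 CPM with RC and 38.6, 39.5 and 47.04 CPM with GRP+RC in 1014-Grpr. In 1064 it was at 7.68, 4.53 and 5.32 CPM with RC and 6.68, 4.98 and 5.45 CPM with GRP+RC. None of these Col15a1 groups passed against mock. The doubted library again stood apart in 1181-Grpr, at 48.5 CPM of Col15a1 with GRP+RC beside 21.3 and 10.6 CPM. Col4a3 was at 0.22, 0.11 and 0.26 CPM with RC in 1057 and at 0.49, 1.03 and 0.53 CPM with RC in 1064, and neither passed against mock. In 1181-Grpr Col4a3 was at 0.48, 0.22 and 0.15 CPM in mock and 0.60, 0.26 and 0.070 CPM with GRP, and in 1181-Ctrl at 1.14, 0 and 0.051 CPM and 0.33, 0.035 and 0.18 CPM.

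The genes that modify, export and read collagens were counted over 60 genes in 6 lists, chosen with earlier results of these data known. In 1057 37 were tested and 24 passed with GRP, 17 higher and 7 lower, set beside the 52.2% of all genes. Of the folding and export genes 7 of 10 rose and 0 fell. Sec24d, a COPII coat protein that procollagen needs to leave the endoplasmic reticulum, rose from 38.3, 34.5 and 35.6 CPM to 161, 161 and 159.5 CPM (2.15, SE 0.04, adjusted p = 2.2e-17) and was at 101, 111 and 104 CPM with GRP+RC. Of the prolyl and lysyl hydroxylation genes 8 of 14 rose and 3 fell. Of the procollagen processing genes 1 of 5 rose, Adamts14, an aminopropeptidase (0.92, SE 0.31, adjusted p = 0.019). The 1 crosslinking gene tested and the 1 fibril-binding proteoglycan tested both fell. Of the receptors 1 of 6 rose and 2 fell, among them the integrin chain Itga2, from 7.67, 6.61 and 7.30 CPM to 4.08, 2.60 and 2.86 CPM (-1.19, SE 0.12, adjusted p = 1.2e-07).

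In 1064 3 of 41 passed, all higher, against 6.35% of all genes, and 20 with the block (18 higher and 2 lower), against 43.2%. The prolyl 3-hydroxylase P3h2, which acts on basement membrane collagens, rose from 81.5, 92.4 and 102 CPM to 132, 267 and 176 CPM (1.06, SE 0.26, adjusted p = 0.038), and the shared collagen-receptor chain Itgb1 from 868, 1019 and 1283 CPM to 1972, 1990.0 and 1699 CPM (0.84, SE 0.15, adjusted p = 0.013). In 1014-Grpr 7 of 38 passed, 6 higher and 1 lower, against 28.6%, and 20 with the block (16 higher and 4 lower), against 53.1%. P3h2 went from 90.7, 83.0 and 83.7 CPM to 199, 263 and 241 CPM (1.45, SE 0.09, adjusted p = 6.3e-07) and with GRP+RC to 115, 115 and 114 CPM. It moved more in 1014-Grpr than in 1014-Ctrl, by 1.79 (SE 0.20, adjusted p = 4.5e-06), and by 1.49 without the doubted library. In 1181-Grpr, 1181-Ctrl and 1014-Ctrl 0 of 41, 36 and 38 passed by edgeR and by DESeq2, with 0, 0 and 2 at an unadjusted p under 0.05.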

How the data were processed

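PolyA RNA-seq libraries were measured for 6 lines and 4 treatments. The authors aligned paired reads with STAR to mm10 (GRCm38.p5, GENCODE M13) after FastQC 0.11.5 and deposited unnormalised counts of reads per gene beside a TPM table. ComBat was used where applicable. Whether counting used the strand is not given in the sources used here. In the deposited TPM table of 1057, 12 columns held TPM with decimal commas (unit other), read here as decimals. Symbols and positions came from GENCODE M21 on GRCm38, which held 99.56% of 50600 listed genes.

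Genes with 10 or more counts in at least 3 of a line's 12 libraries were fitted per line with edgeR 4.0.16 (TMM, quasi-likelihood test, R 4.3.3), the mock libraries in a fit of 18 and each interaction in a fit of 24. A chain passed at a Benjamini-Hochberg adjusted p under 0.05 over all genes tested, and the number with a log2 change above 1 in size was also counted, in 24 comparisons. Comparisons within a line share their mock or GRP libraries. SE is the log2 change divided by the square root of F. Depth of 19512882 to 46862053 counts puts 3 counts at 0.064 to 0.154 CPM. No replicate pair agreed within sampling noise (lowest chi-square per degree of freedom 2.556). The pairs of 1057 lay at 2.556 to 9.845, and the lowest pair of any other line at 11.62 (1014-Ctrl, GRP+RC). Replicates of 1057 were thus closer to each other, and numbers of chains that passed cannot be compared between lines as sizes of response. Samples were grouped by their labels. DESeq2 1.42.0, other filters, 1 fit of 72 libraries, the replicate block, leaving out each replicate number and leaving out the 2 doubted libraries were alternatives. Scripts were tested on simulated data.

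Same-numbered libraries of a line correlated above 0.1 in every pair in 1064 (lowest 0.667), 1014-Grpr (0.596) and 1181-Ctrl (0.912), and not in 1057 (-0.51), 1181-Grpr (-0.096) or 1014-Ctrl (0.028). Without the doubted libraries they did so in 1181-Grpr (0.684) and 1014-Ctrl (0.680). The members and lists were chosen with earlier results of these data known. Named were chains that passed with GRP (up to 12 a line), those that passed in 2 lines, the 5 of highest mock TPM per line, the 10 of widest range between lines, the type IV chains, up to 3 pathway genes a comparison and the label checks. The 13th chain of 1057 and chains named from the blocked fit, the separation of the ΔEcad lines and the replicate spread were chosen after their values were seen. The summed level of 1 further marker list is not reported here.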

Additional observations from a re-analysis of the deposited data

Results flagged for a closer look

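The change with GRP differed between 1014-Grpr and 1014-Ctrl for 2 chains by the test of that difference itself (edgeR, 24 libraries). For Col4a4 the log2 difference was -1.39 (adjusted p = 0.021), and for Col5a1 it was 1.11 (adjusted p = 0.024). Without the doubted library the same test gave -1.04 (adjusted p = 0.0069) for Col4a4 and 1.13 (adjusted p = 0.022) for Col5a1. Col4a4 fell in all 3 replicate numbers of 1014-Grpr, and Col5a1 rose in all 3. Both calls were lost without some replicate numbers, as given with the interaction. Their causes were not tested.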

How the results depend on the processing

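Counts of chains that passed changed with the fit. With 1 fit of all 72 libraries the count in 1057 was 2 for GRP against mock, 0 for GRP+RC against GRP, 0 for RC and 1 for GRP+RC against mock, and it was 0 for GRP+RC against GRP in 1014-Grpr, 2 for GRP in 1014-Ctrl, 1 for the 1014 interaction and 3 for the mock libraries of the 1014 pair. With the log2 change required to exceed 1 in size, the counts in 1057 were 6, 1, 0 and 3 in the same order, and in 1014-Grpr 1 for GRP against mock and 0 for GRP+RC against GRP. DESeq2 gave 1 for RC in 1057, 1 for GRP+RC against GRP in 1064 and 3 for the mock libraries of the 1014 pair. The fit of all 72 libraries and the DESeq2 fits were not run without the doubted libraries. Without them the main fits gave 0 for GRP in 1014-Ctrl, 2 for the 1014 interaction and 0 for the mock libraries of the 1014 pair. Without a filter on low counts the numbers were 1 for GRP in 1064, 8 for GRP in 1014-Grpr and 4 for GRP+RC against GRP in 1014-Grpr. Apart from GRP against mock with the log2 threshold, the share of all genes is not given for these settings. These counts thus have no background to be set against. The causes were not tested.

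With the replicate block 11 chains passed for GRP in 1064, 4 for GRP+RC against GRP in 1064, 13 for GRP in 1014-Grpr, 9 for GRP+RC against GRP and 1 for GRP+RC against mock in 1014-Grpr, and 8 for the 1014 interaction (9 without the doubted libraries). In 1181-Ctrl the block changed no call, and in 1057, where numbers did not pair, it gave 15 for GRP. The share of all genes with the block is not given for 1057.

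Leaving out each replicate number gave these ranges. In 1057 they were 10 to 12 for GRP, 6 to 6 for GRP+RC against GRP, 0 to 1 for RC and 5 to 5 for GRP+RC against mock. They were 0 to 0 for GRP in 1064, 1 to 5 for GRP and 0 to 1 for GRP+RC against GRP in 1014-Grpr, and 0 to 1 for the 1014 interaction. For mock libraries they were 17 to 22 for 1057 against 1064, 4 to 15 for the control lines and 3 to 7 for the 1181 pair.

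Of 968 log2 changes of single genes under the alternatives, 0 reversed, 777 kept their side of the threshold, 148 lost the call and 43 gained it. The 148 included 39 in the 1 fit of 72 libraries and 31, 25 and 39 without replicate 1, 2 and 3. By CPM per kilobase the 5 chains of highest level stayed so in 5 lines, and 4 of the 5 did in 1181-Grpr. Depth limits Col4a3 in 1057, with 3 or 4 counts a library in mock, and Col9a2 there, with 3 to 13.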
